A study of Mus musculus with 16 samples.

Results

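Transcripts of the Fc gamma receptors were followed in bulk RNA-seq of 16 MC38 tumors, each from another mouse. The family was taken as 5 genes matched by symbol: the inhibitory receptor Fcgr2b, the activating receptors Fcgr1, Fcgr3 and Fcgr4, and Fcer1g, which encodes the common gamma chain. All 5 were found among the 53465 genes of the count table, and all 5 were among the 18251 genes kept by the filter on low counts. The MC38 line comes from a mouse colon adenocarcinoma and was implanted under the skin of the right flank of female C57BL/6 mice aged 6 to 8 weeks. Mice whose tumor measured 150 to 250 mm3 on day 16 were randomised to control IgG or to an antibody against PD-1 (aPD-1). Each mouse received 200 µg on days 16 and 20, and tumors were taken on day 21. The groups were IgG control (n = 8, tumors 1 to 8), aPD-1 non-responder (n = 6, tumors 9 to 14) and aPD-1 responder (n = 2, tumors 15 and 16). Response status was set after treatment by CD8 T cell staining of a separate piece of the same tumors, so T cell content is part of how the response groups were made. The clone and isotype of the antibodies are not given in the sources used here, and the IgG control also received an immunoglobulin that Fc receptors can bind, so no group was free of injected antibody.

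Fc gamma receptors bind the constant part of IgG and sit mainly on macrophages, monocytes, neutrophils, dendritic cells, NK cells and B cells. Fcgr1, the high-affinity receptor, Fcgr3 and Fcgr4 signal through the gamma chain encoded by Fcer1g, whose ITAM motif is phosphorylated by Src family kinases and recruits Syk. Fcgr2b carries an ITIM instead and recruits phosphatases such as SHIP1, which dampens the same signal. The relative level of activating receptors and Fcgr2b is the usual way to describe how readily an Fc receptor bearing cell responds to immune complexes. In mouse tumor models these receptors are known for deciding how therapeutic antibodies act on the cells they coat.

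Fcgr2b (ENSMUSG00000026656, chr1:170958617-170976547, minus strand), Fcgr4 (ENSMUSG00000059089, chr1:171018920-171029761, plus strand), Fcgr3 (ENSMUSG00000059498, chr1:171051174-171064935, minus strand) and Fcer1g (ENSMUSG00000058715, chr1:171229572-171234365, minus strand) are neighbors on GRCm38. Fcgr1 (ENSMUSG00000015947, chr3:96282909-96293969, minus strand) lies on another chromosome. The annotated genes that overlap Fcgr2b, Fcgr3 and Fcgr4, namely Gm38204, Mir6546 and Gm26110, had at most 1 expected count in any tumor. Fcgr2b and Fcgr3, of opposite sign, are close copies in the part that encodes their second immunoglobulin-like domain. Coding exon 4 is shown for both because few bases within it tell reads of the activating gene from those of the inhibitory gene. It spans chr1:170966446-170966700 in Fcgr2b and chr1:171053939-171054193 in Fcgr3, both on the minus strand of GRCm38, read from the GENCODE transcripts, with the bases that differ in capitals.
Fcgr2b exon 4: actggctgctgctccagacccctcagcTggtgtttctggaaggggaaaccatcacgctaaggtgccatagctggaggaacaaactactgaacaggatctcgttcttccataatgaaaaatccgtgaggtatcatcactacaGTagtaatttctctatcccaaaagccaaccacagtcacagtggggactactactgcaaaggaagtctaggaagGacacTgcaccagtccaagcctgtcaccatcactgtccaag
Fcgr3 exon 4: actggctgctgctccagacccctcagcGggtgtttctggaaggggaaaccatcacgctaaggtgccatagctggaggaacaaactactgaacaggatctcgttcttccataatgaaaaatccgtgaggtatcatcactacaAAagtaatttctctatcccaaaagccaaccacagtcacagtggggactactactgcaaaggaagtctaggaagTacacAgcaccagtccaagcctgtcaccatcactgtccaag
Only 5 of these 255 bases differed (98% identity), and the longest identical run was 113 bases, shorter than the reads of 150 bases. Exon 3 was 93.4% identical, while the whole coding sequences of Fcgr2b and Fcgr3 were 66.5% identical. The other pairs of receptors were 41.1% to 59.5% identical over their coding sequences. The expected count of Fcgr2b was not a whole number in 3 of 16 tumors, and those of the other 4 genes were whole in all tumors. Each gene had between 936 (Fcgr4) and 5958 (Fcgr2b) expected counts in a tumor, from totals of 26603477 to 39948874. Control tumor 1 and non-responders 9 and 14 stood apart from the rest by their mitochondrial share, 5.74% to 7.60% of counts against 2.52% to 3.25% in the other 13 tumors, and results are also given without them.

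**Figure D1:**
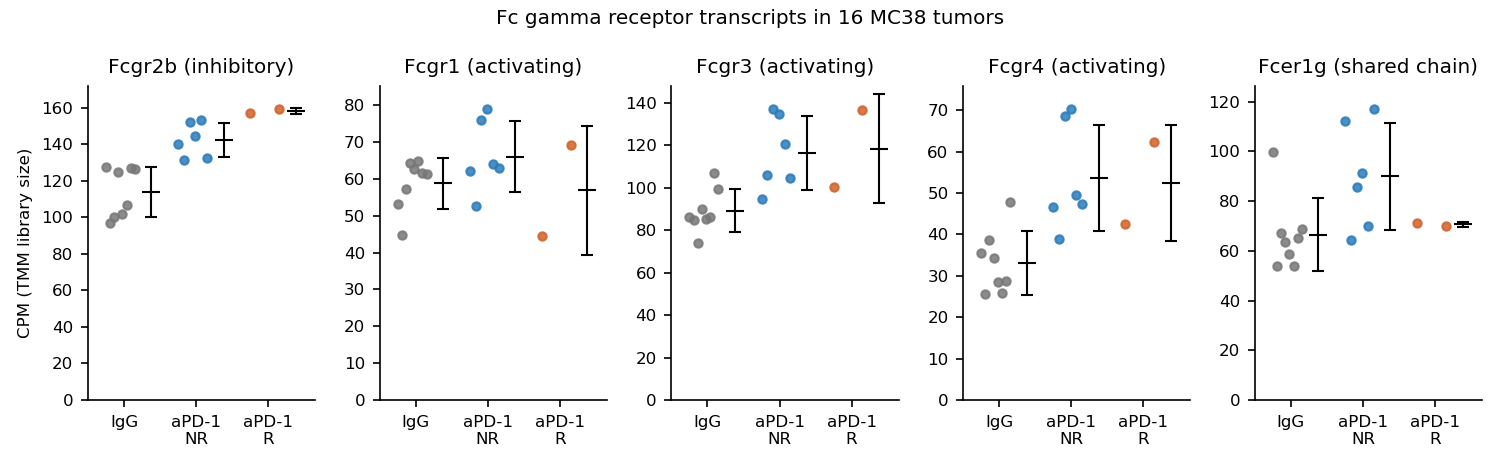
CPM (counts scaled to the TMM-adjusted library total) of the 5 genes in each of the 16 tumors, by group (NR, non-responder; R, responder). Points are tumors, and the bar beside them gives the mean and SD. All 8 aPD-1 tumors lie above all 8 IgG controls for Fcgr2b, and the groups overlap for the other 4 genes.

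Fcgr2b, the inhibitory receptor, had 97.0 CPM, the count scaled to the library total after TMM adjustment, in the lowest IgG control, 116 in the median and 127 in the highest. The non-responders had 131 CPM at the lowest, 142 at the median and 153 at the highest, and the responders 157 and 159 CPM. All 8 aPD-1 tumors therefore lay above all 8 IgG controls, although the gap between the groups was narrow. Of the 18251 genes tested, 3 (0.0164%) had this lack of overlap in the higher direction, the others being Pik3ip1 and Slc39a4, named after their values were seen. With median-of-ratios scaling 7 of the 8 aPD-1 tumors lay above all controls for Fcgr2b, and 1 gene of all tested had no overlap. With scaling by total counts alone it was 8 of 8 tumors, and 6 genes had no overlap. Both responders were also above all 6 non-responders, as held for 21.5% of genes tested.

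Fcgr4, the activating receptor for IgG2 antibodies, had 25.6 CPM in the lowest IgG control, 31.5 in the median and 47.9 in the highest. The non-responders had 38.9 CPM at the lowest, 48.5 at the median and 70.2 at the highest, and the responders 42.6 and 62.3 CPM. The groups overlapped, with 4 of 8 aPD-1 tumors above every control.

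Fcgr3, the low-affinity activating receptor, had 73.8 CPM in the lowest control, 86.2 in the median and 107 in the highest. The non-responders had 94.8, 113 and 137 CPM in the same order, and the responders 100.2 and 137 CPM. The groups overlapped, with 4 of 8 aPD-1 tumors above every control.

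Fcgr1, the high-affinity receptor, had 44.8 CPM in the lowest control, 61.5 in the median and 64.9 in the highest. The non-responders had 52.6, 63.4 and 78.9 CPM in the same order. The responders lay on either side, with 44.6 CPM in tumor 15, the lowest of all 16, and 69.2 CPM in tumor 16.

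Fcer1g, the gamma chain on which Fcgr1, Fcgr3 and Fcgr4 depend, had 53.9 CPM in the lowest control, 64.4 in the median and 99.9 in the highest. The non-responders had 64.3, 88.5 and 117 CPM in the same order, and the responders 71.4 and 70.0 CPM. The highest control value came from tumor 1, and the next had 69.0 CPM, so both responders lay above 7 of 8 controls.

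Levels of different genes are comparable only per length of transcript. Per kilobase of the longest coding transcript, the mean CPM over 16 tumors was 111 ± 28.8 (SD) for Fcer1g, 76.4 ± 14.8 for Fcgr3, 36.7 ± 5.78 for Fcgr2b, 34.4 ± 11.4 for Fcgr4 and 23.7 ± 3.63 for Fcgr1. In their ranges over the tumors Fcer1g overlapped Fcgr3, and Fcgr2b, Fcgr4 and Fcgr1 overlapped each other. Fcgr3 also overlapped Fcgr4, but its range lay above that of Fcgr2b (54.8 to 101.7 against 27.4 to 44.9). The place of Fcgr2b depended on the length used, since its level was 22.5 ± 3.54 per kilobase of all its annotated exons, the lowest mean of the 5 genes, and 120 ± 18.9 per kilobase of its shortest coding transcript of 1084 bases, the highest mean of the 5, with a range that overlapped that of Fcer1g.

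Between aPD-1 responders and non-responders, no Fc gamma receptor passed the test. The 3 groups were fitted together in edgeR by quasi-likelihood, p-values were adjusted by Benjamini-Hochberg over the 18251 genes, and an adjusted p below 0.05 counted as passed. In this comparison 19.7% of genes passed and 0 of the 5 members did, with 0 also at an unadjusted p below 0.05, as 31.2% of all genes were, and 0 with DESeq2, which passed 15.9% of genes in the higher direction. The log2 fold change was 0.15 ± 0.13 (SE) for Fcgr2b, 0.03 ± 0.16 for Fcgr3, -0.03 ± 0.25 for Fcgr4, -0.22 ± 0.18 for Fcgr1 and -0.35 ± 0.24 for Fcer1g. Their adjusted p-values (edgeR) were 0.476, 0.939, 0.958, 0.467 and 0.357. The 95% intervals bound the possible difference: for Fcgr2b the responders could lie between 0.921-fold and 1.34-fold of the non-responders, and for Fcgr4 between 0.676-fold and 1.42-fold. The median over the 5 genes was -0.03 on the log2 scale and that over all genes tested 0.02. The value of Fcgr1 rested on 1 responder, being -0.62 without tumor 16 (adjusted p = 0.0685, edgeR) and close to 0 without tumor 15.

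**Figure D2:**
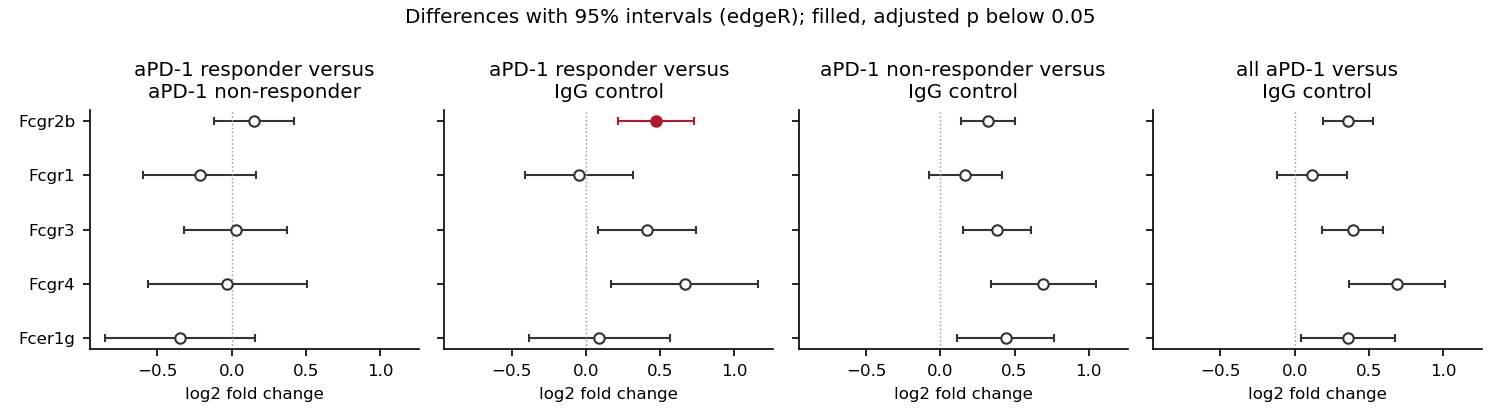
Log2 fold change of the 5 genes in 4 comparisons, with 95% intervals from edgeR. Points are estimates, and a filled point marks an adjusted p below 0.05, reached by Fcgr2b between responders and IgG controls at 0.47.

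Between responders and IgG controls, Fcgr2b rose by 1.39-fold (log2 fold change 0.47 ± 0.12, adjusted p = 0.00852, edgeR), and was above all 8 controls in 2 of 2 responders, as held for 19.3% of genes tested. It was the only member of 5 to pass, in a comparison where 17.7% of all genes tested passed in the higher direction. Fcgr4 had a log2 fold change of 0.66 ± 0.23 (adjusted p = 0.0512, edgeR) and Fcgr3 one of 0.41 ± 0.15 (adjusted p = 0.0673, edgeR), neither of which passed. Without responder 16 these were 0.31 for Fcgr4 (adjusted p = 0.553, edgeR) and 0.11 for Fcgr3 (adjusted p = 0.759, edgeR), and without responder 15 they were 0.84 (adjusted p = 0.114, edgeR) and 0.54 (adjusted p = 0.119, edgeR). Fcer1g stood at 0.09 ± 0.22 and Fcgr1 at -0.05 ± 0.17, with adjusted p-values (edgeR) of 0.824 and 0.882. With 2 responders, the call for Fcgr2b was lost when either was left out (adjusted p = 0.204 without tumor 15 and 0.114 without tumor 16, edgeR), while its log2 fold change stayed at 0.41. Fcgr4 also passed with DESeq2 (adjusted p = 0.0431), where 18% of genes passed in the higher direction.

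Between non-responders and IgG controls, all 5 members had a log2 fold change above 0, and none passed. No gene of the 18251 passed in this comparison (0% of genes, edgeR), 694 had an unadjusted p below 0.05, and DESeq2 passed 10 genes in the higher direction (0.0549%), none of them a member. Fcgr4 had the largest value among the members, 0.69 ± 0.17, or 1.62-fold, and ranked 12 of 18251 genes by p. Fcgr2b at 0.32 ± 0.08 ranked 36 and Fcgr3 at 0.38 ± 0.11 ranked 45, while Fcer1g at 0.44 ± 0.15 ranked 163. Fcgr1 at 0.17 ± 0.12 ranked 2563. The adjusted p-values (edgeR) of the 5 genes lay between 0.763 and 0.987, and 4 of 5 were below 0.05 before adjustment, as were 3.8% of all genes. The median over the members was 0.38, and over all genes tested -0.01.

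Taken by treatment alone, the 8 aPD-1 tumors against the same 8 controls, the picture was alike, and these comparisons share their control tumors. Fcgr2b was 1.28-fold higher (log2 fold change 0.36 ± 0.08), Fcgr4 1.61-fold (0.69 ± 0.15) and Fcgr3 1.31-fold (0.39 ± 0.10). Each had an adjusted p of 0.153 with edgeR, the smallest of any gene, and 0% of genes passed. Fcer1g had a log2 fold change of 0.36 ± 0.15 (adjusted p = 0.3, edgeR) and Fcgr1 one of 0.12 ± 0.11 (adjusted p = 0.721, edgeR). Before adjustment 4 of 5 members and 13.5% of all genes (2462) had a p below 0.05. DESeq2, the tool of the study, passed 121 genes in the higher direction (0.676% of those tested), among them Fcgr2b (adjusted p = 0.0102), Fcgr4 (0.0129) and Fcgr3 (0.0293). For these 3 genes the call in the comparison by treatment therefore depended on the tool, whereas the log2 fold changes of both tools differed by at most 0.0075.

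**Figure D3:**
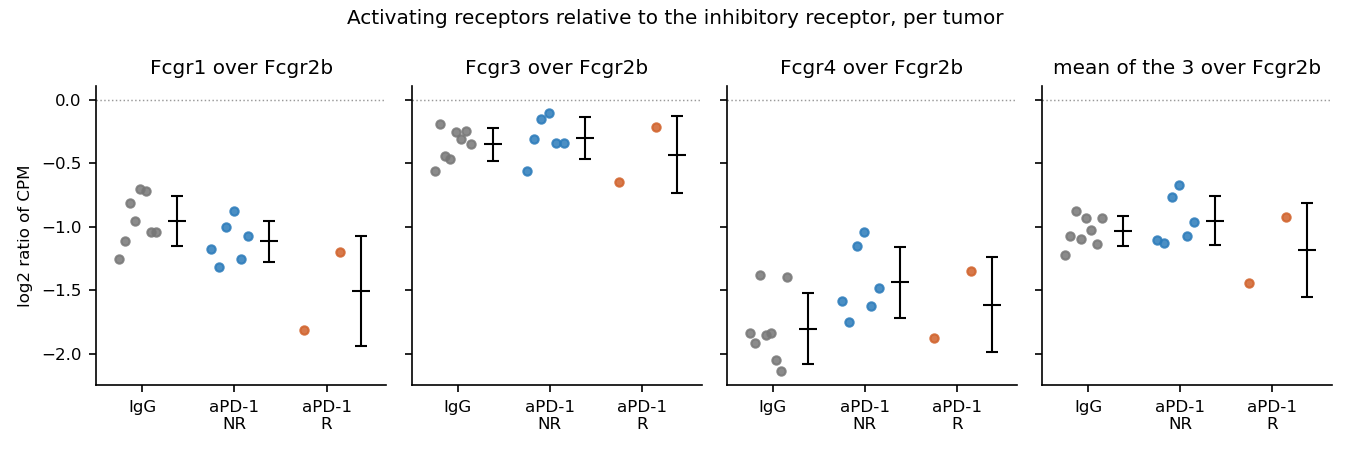
Log2 ratio of the CPM of each activating receptor, and of the mean log2 CPM of all 3, to that of Fcgr2b in each tumor, by group. Points are tumors, bars give mean and SD, and the groups overlap in every panel.

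The activating receptors were set against Fcgr2b within each tumor, as a description without a test. Only differences in this log2 ratio between tumors can be read, since its height also depends on transcript length. The ratio of the mean log2 CPM of Fcgr1, Fcgr3 and Fcgr4 to Fcgr2b was -1.04 ± 0.12 (SD, n = 8) in IgG controls, -0.95 ± 0.19 (n = 6) in non-responders and -1.19 ± 0.37 (n = 2) in responders. The 2 responders lay at -1.45, the lowest of 16 tumors, and -0.92, within the range of the controls. All aPD-1 tumors together differed from the controls by 0.03 on this scale, less than the SD within either group.

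The 3 activating receptors did not move alike against Fcgr2b. Fcgr4 over Fcgr2b had a mean of -1.80 ± 0.28 in controls and -1.48 ± 0.29 (n = 8) in aPD-1 tumors, 0.32 higher. Fcgr1 over Fcgr2b went the other way, from -0.95 ± 0.20 to -1.22 ± 0.28, 0.26 lower. Fcgr3 over Fcgr2b differed by 0.02 between the treatments. Fcer1g over Fcgr2b was lowest in both responders, at -1.16 ± 0.03 against -0.69 ± 0.38 in non-responders and -0.79 ± 0.22 in controls. The margin was small, since the responders had -1.135 and -1.184 and non-responder 13 had -1.129. The highest non-responders, 9 and 14 at -0.32 and -0.18, were those of high mitochondrial share.

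**Figure D4:**
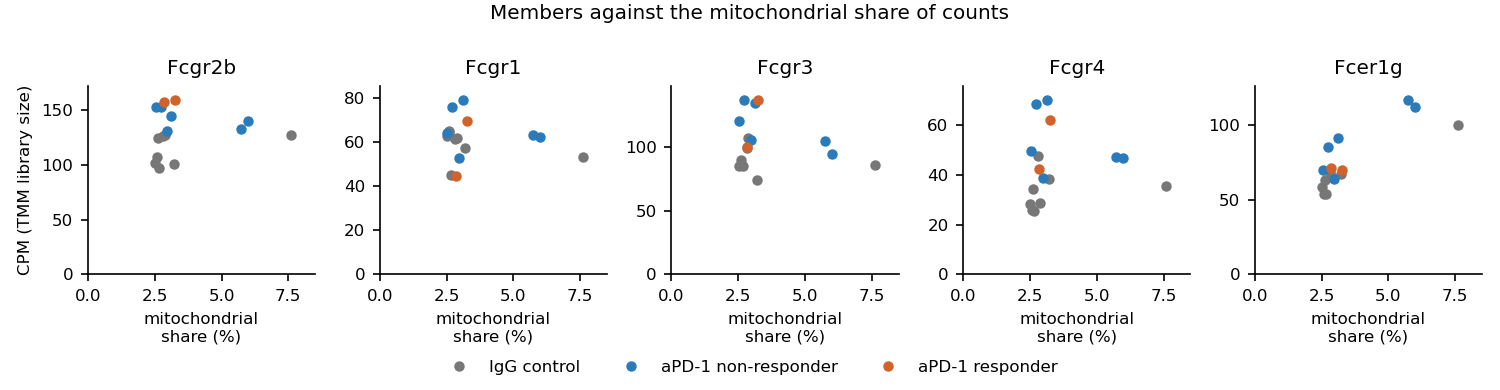
CPM of the 5 genes against the share of counts from mitochondrial genes in each tumor, by group. The 3 tumors with a share above 5% have the highest Fcer1g values, 99.9 to 117 CPM, and are not at the top for the other 4 genes.

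Control tumor 1 and non-responders 9 and 14, the tumors of high mitochondrial share, had the highest Fcer1g levels, 99.9 to 117 CPM against 53.9 to 91.5 in the other 13. Of the 9 macrophage genes 3 were lower in these 3 tumors than in all of the other 13, and 0 were higher. They were Adgre1, the F4/80 marker, at 16.3 to 32.1 against 63.5 to 108 CPM, Mrc1, the mannose receptor, at 26.7 CPM or less against 40.4 to 206 CPM, and Csf1r, the receptor for the growth factor CSF1, at 109 to 121 against 134 to 204 CPM. The other 6, such as the complement gene C1qa, overlapped. Their part in the Fcer1g values was not tested. Fcgr1, Fcgr2b, Fcgr3 and Fcgr4 in these 3 tumors lay within the range of the others. Without them, a setting added after the data were seen, Fcgr2b still passed between responders and IgG controls (log2 fold change 0.44, adjusted p = 0.00598, edgeR). In the comparison by treatment the log2 fold changes without them were 0.40 for Fcgr2b, 0.44 for Fcgr3, 0.74 for Fcgr4 and 0.28 for Fcer1g, with adjusted p-values (edgeR) of 0.0821, 0.0877, 0.0877 and 0.128.

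In bulk tissue, fewer cells of a type and less RNA per cell cannot be told apart, so the marker genes of the cells that carry Fc receptors were read beside the members. The 9 macrophage genes were abundant in every tumor, with a summed level of 996 to 1405 CPM in controls, 1150 to 1644 in non-responders and 1498 to 1631 in responders. Between non-responders and controls 0 of the 9 passed, as 0% of all genes did (edgeR). At an unadjusted p below 0.05 were 1 of the 9 and 3.8% of all genes, and the median log2 fold change of the 9 was 0.04. Between responders and controls 3 of 9 passed, all higher, among them Cd68 and Mrc1, where 17.7% of all genes tested passed in the higher direction. The monocyte genes summed to 428 to 1083 CPM in controls, 572 to 941 in non-responders and 535 to 993 in responders, mostly from Vcan, which tumor and stromal cells also express. Of these 5 genes 3 passed higher between responders and controls, namely Ly6c2, Plac8 and Chil3 (log2 fold change 2.98, 1.61 and 2.98, edgeR). The same 3 passed between responders and non-responders. Vcan (-0.64) and Ccr2 (0.03) did not pass between responders and controls, and Chil3 had 3.81 and 122 CPM in the responders. Of the neutrophil genes Ly6g was at 0 in all tumors, and the list summed to at most 12.4 CPM outside the responders and to 14.9 and 30.7 CPM in them. Of the 5 neutrophil genes tested, 4 passed higher between responders and controls (edgeR). The part of any of these lists in the receptor values was not tested.

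The responders differed more in lymphoid and other tissue markers. The 7 B cell genes summed to 314 and 1155 CPM in the responders and to 1.63 to 7.56 CPM in the other 14 tumors. All 7 passed between responders and non-responders, where 15.4% of all genes passed in the higher direction. Fcgr2b is the Fc gamma receptor of B cells. B cell genes summed to 2.58 to 6.84 CPM in the non-responders and 1.63 to 7.56 CPM in the controls, where Fcgr2b had 131 to 153 CPM and 97.0 to 127 CPM. T cell genes summed to 192 and 199 CPM in the responders and to at most 29.3 CPM elsewhere, dendritic cell genes to 76.4 and 90.7 CPM against at most 20.3 CPM, and lymph node stroma genes to 159 and 582 CPM against at most 5.01 CPM. Fat cell genes summed to 268 and 1543 CPM in the responders, and to at most 85.8 CPM elsewhere. NK cell genes summed to 59.3 and 60.4 CPM in the responders and 76.9 to 108 CPM elsewhere, most of it Klra4, which was the only 1 of the 5 to fall between responders and non-responders (log2 fold change -0.84, adjusted p = 0.000234, edgeR). Klrb1c rose by 1.57 and Ncr1 by 1.32 in the same comparison (adjusted p = 0.00438 and 0.0346, edgeR). Mast cell genes ranged from 1.90 to 87.3 CPM with overlapping groups, and skeletal muscle genes reached 1341 CPM in 1 control. The labelled origin is a colorectal carcinoma line, and of the 7 epithelial genes Cdh1 was present in every tumor, at 3.75 to 8.12 CPM outside the responders, where Cdx2 had at most 0.0259 CPM, Vil1 at most 0.283 CPM and Epcam at most 0.942 CPM. Krt8, Krt18 and Krt19 had 11.3 to 33.4 CPM in the responders and at most 1.80 CPM elsewhere. What share of the Fcgr2b difference between responders and controls came with these other cells was not tested.

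The ligands of the receptors showed the largest differences. Ighg1, Ighg2b, Ighg2c and Ighg3, the heavy chain constant genes of IgG, summed to 819 and 1194 CPM in the responders, to 0.82 to 8.87 CPM in the non-responders and to 0.112 to 6.12 CPM in the controls. Ighg1 had 731 and 427 CPM in the responders and at most 3.93 CPM in the other 14 tumors. All 4 rose between responders and non-responders, where 15.4% of all genes passed in the higher direction. Their log2 fold changes were 8.07 ± 1.16 for Ighg1, 7.96 ± 0.48 for Ighg2b, 6.79 ± 1.02 for Ighg2c and 5.99 ± 1.16 for Ighg3 (edgeR, adjusted p at most 0.00128). Between the same groups the log2 fold changes of the 5 Fc gamma receptor genes lay between -0.35 and 0.15.

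**Figure D5:**
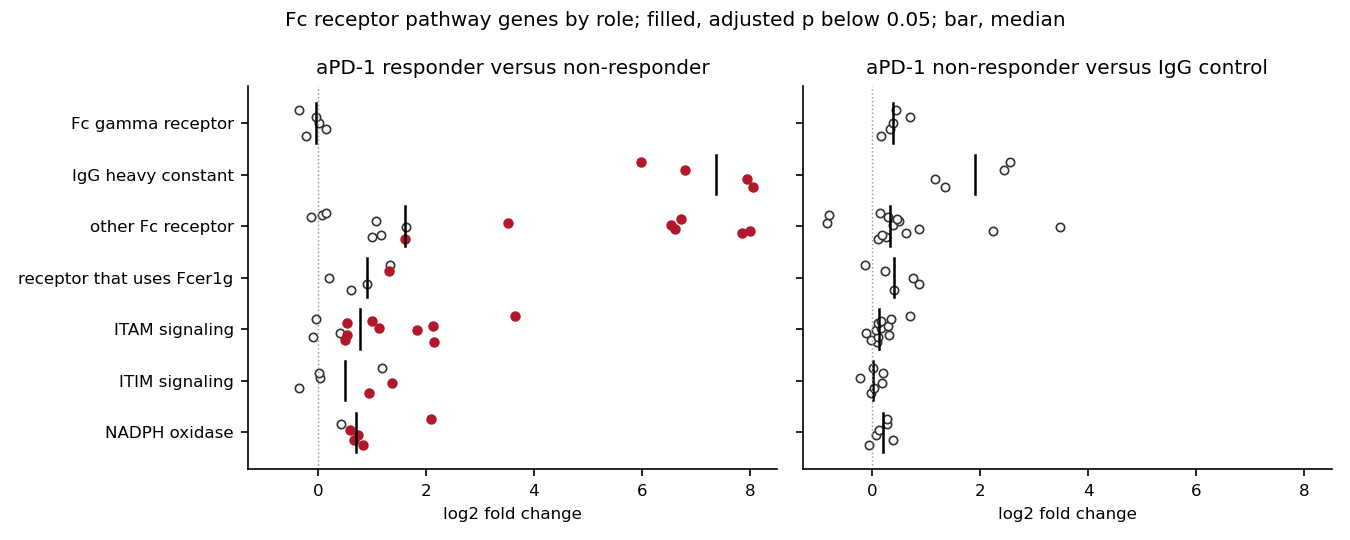
Log2 fold change (edgeR) of the tested genes of 7 lists by role, between responders and non-responders (left) and between non-responders and IgG controls (right). Each point is a gene, filled where the adjusted p is below 0.05, and the bar is the median of the list, -0.03 for the Fc gamma receptors on the left and 0.38 on the right.

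Signaling genes downstream of the receptors were read from lists by role. Between responders and non-responders 9 of 12 ITAM signaling genes rose, where 15.4% of all genes passed in the higher direction. The median of the list was 0.77. Syk, the kinase recruited by the gamma chain, rose by 2.15 ± 0.24 on the log2 scale, Btk by 1.83 ± 0.26, Pik3cd by 2.14 ± 0.20 and Rac2, a subunit of the NADPH oxidase, by 2.10 ± 0.16 (edgeR, adjusted p at most 6.39e-05). B cells or T cells also express these genes. Tyrobp, the DAP12 adaptor of myeloid and NK cells, did not pass (-0.03 ± 0.13), nor did Plcg2 (0.41 ± 0.17).

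Of the 6 ITIM signaling genes 2 rose between responders and non-responders, where 15.4% of all genes passed in the higher direction. They were Inpp5d, which encodes SHIP1, by 0.94 ± 0.17 and Ptpn6, which encodes SHP-1, by 1.38 ± 0.18 (edgeR, adjusted p at most 0.000912). Inppl1 and Ptpn11, more widely expressed phosphatases, stood at -0.35 ± 0.22 and 0.05 ± 0.24. Of the 6 NADPH oxidase genes, which make the oxidative burst that Fc receptors set off, 5 rose, beside the same 15.4% of all genes. Cybb, the catalytic subunit, rose by 0.85 ± 0.24 and Ncf1 by 0.74 ± 0.20, and Ncf4 did not pass (0.44 ± 0.27).

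Among the other Fc receptors, Fcmr, Fcer2a and Fcrla, which are receptors of B cells, had the largest values. In responders against non-responders 7 of 14 rose and 0 fell, where 15.4% of all genes passed in the higher direction. The B cell receptors Fcer2a (CD23), Fcmr, Fcrl1 and Fcrla had log2 fold changes of 7.85 ± 0.67, 8.00 ± 0.64, 6.54 ± 0.47 and 6.73 ± 0.41 (edgeR, adjusted p at most 3.98e-07). Fcamr, with 6.62 ± 0.93 (adjusted p = 6.56e-05, edgeR), lay above Fcrl1, but had only 0.309 and 2.335 CPM in the responders. Fcgrt, the neonatal Fc receptor that recycles IgG, rose by 1.61 ± 0.38 (adjusted p = 0.00604, edgeR), from 29.9 ± 11.5 CPM (SD, n = 6) to 49.6 and 133 CPM. Trim21, a cytosolic receptor for antibody, had 0.16 ± 0.12 and did not pass. The mast cell receptor genes Fcer1a and Ms4a2 stayed at or under 1.80 CPM in all tumors. Of 6 other receptors that pair with the Fcer1g chain, 5 were tested and only Ncr1 passed (1.32 ± 0.42, adjusted p = 0.0346, edgeR), at 3.43 CPM or less. Clec4n (Dectin-2), the most abundant of them, stood at 0.20 ± 0.42.

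Over these 6 lists together, 47 of 48 genes were tested, and 28 rose and 0 fell between responders and non-responders, where 15.4% of all genes passed in the higher direction. Between non-responders and controls 0 of the 47 passed with edgeR or with DESeq2, and 13 had an unadjusted p below 0.05, as had 3.8% of all genes. By treatment 0 of 47 passed with edgeR, 7 passed with DESeq2 and 25 had an unadjusted p below 0.05. Of all genes 0.676% passed in the higher direction with DESeq2 by treatment, and 13.5% had an unadjusted p below 0.05. Tyrobp had 50.2 to 65.5 CPM in controls, 61.3 to 78.7 in non-responders and 62.5 and 77.6 in responders, with overlapping groups and a log2 fold change by treatment of 0.34 ± 0.08 (adjusted p = 0.153, edgeR). Clec4n had 0.80 ± 0.26 by treatment (adjusted p = 0.191, edgeR).

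The members varied together to different degrees. Over the 14 tumors other than the responders, Pearson's r of log2 CPM was 0.84 between Fcgr2b and Fcgr3, 0.79 between Fcgr2b and Fcgr4 and 0.75 between Fcgr3 and Fcgr4. It was lower for Fcgr1 with these 3 genes (0.58 to 0.65) and for Fcer1g with Fcgr1 (0.32) and Fcgr3 (0.35). These values describe tumors that were prepared with the same library kit and include both treatments. The values for Fcer1g differed without the 3 tumors of high mitochondrial share. Over the 13 tumors without them, responders included, r of Fcer1g was 0.91 with Fcgr4, 0.74 with Fcgr3 and 0.55 with Fcgr1, against 0.58, 0.29 and 0.27 over all 16. The lowest r over these 13 tumors was that between Fcgr1 and Fcgr2b, 0.32. With the mean of the macrophage list, r over the 14 tumors, the 3 of high mitochondrial share among them, lay between -0.52 for Fcer1g and 0.44 for Fcgr1. With the monocyte list it lay between -0.44 for Fcer1g and 0.45 for Fcgr1. It was positive for all 5 members with the NK cell list (0.48 for Fcer1g to 0.80 for Fcgr4) and the T cell list (0.33 for Fcgr1 to 0.78 for Fcgr4). The same held for the B cell list (0.28 for Fcgr3 to 0.52 for Fcgr2b and Fcgr4) and the lymph node stroma list (0.30 for Fcer1g to 0.49 for Fcgr1).

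Over all 16 tumors the genes most like Fcgr2b by Pearson's r of log2 CPM were Azin2 (0.90), Ubd (0.89), Pla2g7 (0.88), Ly6a (0.88) and Il18bp (0.86). Those most like Fcgr4 were Ly6a (0.92), Irgm1 (0.91), Igtp (0.91), Tgtp2 (0.90) and AW112010 (0.90). Those most like Fcgr3 were Cd200r4 (0.89), Ms4a6d (0.89), AA467197 (0.88), Clec4n (0.87) and Ifi47 (0.87). Fcer1g was most like B2m (0.93), and Fcgr1 was most like Sirpb1b (0.89), the only gene with an r above 0.8 for it, against 28 genes for Fcgr2b, 22 for Fcgr3, 56 for Fcgr4 and 125 for Fcer1g.

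Promoters of Fcgr4 and Fcgr1 are shown because these were the activating receptors with the largest and the smallest difference by treatment. Each is the 250 bases before the start of the gene in RefSeq on GRCm38.p6, chr1:171018676-171018925 on the plus strand for Fcgr4 and chr3:96293970-96294219 on the minus strand for Fcgr1. Capitals mark matches to 3 motifs searched on both strands: GAGGAA, the core bound by the myeloid factor PU.1, TTCNNNGAA, the gamma-activated site (GAS), and a repeat of GAAA with any 2 bases between the copies, an interferon response element.
Fcgr4 promoter: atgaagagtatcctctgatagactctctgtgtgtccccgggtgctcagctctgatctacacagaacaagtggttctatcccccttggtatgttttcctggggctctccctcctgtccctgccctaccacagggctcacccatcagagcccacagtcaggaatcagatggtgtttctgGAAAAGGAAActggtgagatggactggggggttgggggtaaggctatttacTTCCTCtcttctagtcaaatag
Fcgr1 promoter: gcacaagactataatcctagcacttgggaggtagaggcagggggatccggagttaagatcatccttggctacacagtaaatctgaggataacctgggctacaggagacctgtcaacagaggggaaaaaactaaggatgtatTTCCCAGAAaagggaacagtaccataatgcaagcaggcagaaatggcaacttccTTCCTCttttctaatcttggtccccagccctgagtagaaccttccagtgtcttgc
The PU.1 core was found in Fcgr4, beginning 22 bases before the start, in Fcgr1 at 55 bases and in Fcgr3 at 6 bases, and in 23.1% of 27025 promoters of this length. Of the 5 windows searched, the GAS motif was found in that of Fcgr1 alone, 109 bases before the start, and in 7.18% of all promoters. The interferon response element was found in that of Fcgr4 alone, 73 bases before the start, and in 3.04% of all promoters. No motif was matched in the windows of Fcgr2b and Fcer1g. RefSeq lists 2 promoters for Fcgr3, of which only the first was searched, and its window (chr1:171059404-171059653, minus strand) lies within the annotated gene.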

How the data were processed

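Per the labels and the study's methods, poly(A)-enriched, strand-specific libraries were made from sections of each frozen tumor and read from both ends for 150 bases. Alignment to GRCm38 was done by the authors with STAR 2.6, who deposited expected counts per gene of Ensembl release 91, estimated with RSEM 1.3.0, which shares reads of near-identical genes between them. The table had 53557 rows, of which 92 spike-in rows (at most 185 counts in a tumor) were left out. GENCODE mouse release M 21 gave the symbols and coordinates. Totals per tumor were 26603477 to 39948874, and no pair of tumors agreed within sampling noise (lowest chi-square per degree of freedom of 120 pairs, 16.5).

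Expected counts were rounded to whole numbers and tested with edgeR 4.0.16 in R 4.3.3 (TMM scaling, filterByExpr over 3 groups, robust quasi-likelihood test, Benjamini-Hochberg adjustment over 18251 genes), in 1 fit of the 3 groups and 1 by treatment. Log2 CPM used a prior count of 2. Simulated counts with 200 changed genes were used to test these steps. SE is the log2 fold change divided by the square root of F. The study's further limit of a log2 fold change above 1 in size was reached by no member in any comparison.

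The 5 members were always named, and genes of 6 further pathway lists and 12 marker lists where a result was read beside them. For likeness the 5 genes of highest r were named for Fcgr2b, Fcgr3 and Fcgr4 and the first for Fcer1g and Fcgr1. The members and lists were chosen with earlier results of these data known. Ratios and correlations were given without a test. Alternatives were DESeq2 1.42.0, median-of-ratios size factors, no filter, at least 10 counts in at least 8 tumors, only the 2 groups compared, a prior count of 0.5 for ratios, and leaving out each tumor. Leaving out the 3 tumors with over 5% mitochondrial counts was added after the data were seen. Protein sequences were not used here, and some single genes of the lists are not reported here.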

Additional observations from a re-analysis of the deposited data

Results flagged for a closer look

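Fcer1g had 99.9 CPM in IgG control tumor 1, and the next control had 69.0 CPM. The gap was 0.672 of the range of the 8 controls, above the 95% critical value of 0.526. Of 18 sets of values tested in this way 1 was set apart, and chance sets apart about 1 in 20. Tumor 1 also had the highest mitochondrial share of all tumors, 7.60% of counts. Its part in the Fcer1g value was not tested. Without this tumor the log2 fold change of Fcer1g by treatment was 0.46 (adjusted p = 0.118, edgeR), against 0.36 with it.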

How the results depend on the processing

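No paired analysis was possible because the groups share no replicate numbers and each tumor came from another mouse. The number of members that passed stayed at 0 between responders and non-responders and between non-responders and controls under all alternatives. Between responders and controls it was 1, but 2 with at least 10 counts in at least 8 tumors and 2 with DESeq2 (Fcgr2b and Fcgr4), and it ranged from 0 to 2 when tumors were left out in turn. Without responder 15 or 16 it was 0, and without control 3 or 8 or non-responder 11 or 12 Fcgr4 also passed, as Fcgr3 did without control 7. The log2 fold changes of Fcgr4 and Fcgr3 in this comparison were 0.31 and 0.11 without responder 16. By treatment it was 0 with edgeR, also with each tumor left out (0 to 0), and 3 with DESeq2. The cause of these differences between settings was not tested.

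The sign of 3 small values was not stable. Fcgr3 between responders and non-responders (0.03) was -0.017 without a filter, -0.0062 with only the 2 groups compared and -0.13 without the 3 tumors of high mitochondrial share, and it ranged from -0.27 to 0.16 with tumors left out, being -0.04, -0.03, -0.06, -0.00 and -0.27 without tumors 1, 9, 10, 14 and 16. Fcgr4 in the same comparison ranged from -0.38 to 0.15, and was 0.05, 0.06 and 0.15 without tumors 11, 12 and 15. Fcgr1 between responders and controls (-0.05) was 0.16 without tumor 15 and -0.46 without tumor 16. The difference in the mean activating to inhibitory ratio ranged, with tumors left out, from -0.49 to 0.03 for responders against non-responders, -0.41 to 0.11 for responders against controls, 0.03 to 0.12 for non-responders against controls and -0.02 to 0.09 by treatment. With 2 responders, intervals that include them are wide, and 1 tumor can decide a value.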

Other observations

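Over the 14 tumors other than the responders, the genes most like each member by Pearson's r of log2 CPM were in part others than over all 16. Cxcl16 (0.94), Ly6a (0.93), Klra2 (0.92), Cxcl10 (0.91) and Il18bp (0.91) were most like Fcgr4. Cd52 (0.95) was most like Fcer1g, Tmem50a (0.94) most like Fcgr3 and Unc93a (0.90) most like Fcgr2b. After Sirpb1b (0.90), Fcgr1 was most like Cd28 (0.87) and Cd40 (0.85), at mean levels of 4.05 and 7.65 CPM. The study's methods give the same library kit for all tumors and do not say whether they were prepared together. The values are descriptions without a test.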
